A study of Homo sapiens with 4 samples.

Results

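Elastic fibre genes were followed in HGC-27 cells, an established gastric carcinoma line, after knockdown of USP47, a deubiquitinase that removes ubiquitin from its target proteins. The 10 genes were chosen by name, with earlier results of these data known. They were matched by symbol among 63568 gene identifiers. The list holds the fibulins FBLN1, FBLN2, FBLN5, EFEMP1 and EFEMP2, the fibrillins FBN1 and FBN2, and elastin (ELN). It also holds the latent TGF-beta binding protein LTBP1 and the microfibril-associated glycoprotein MFAP2. Cells were infected with lentivirus carrying either control shRNA (a scrambled sequence, 2 libraries) or USP47 shRNA (2 libraries), and stable lines were selected with puromycin. Both groups therefore carry a lentiviral insert and underwent selection. The study used more than one USP47 shRNA in this line and the labels do not say which of them each knockdown library carries. The submitters call the libraries of a group biological duplicates, and whether they came from separate infections is not stated, so p-values measure the spread between these libraries. The series' design text speaks of a DMSO vehicle for controls, which the sample labels do not mention.

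Elastic fibres give skin, lung and arteries their recoil. They are built on microfibrils, which are polymers of fibrillins decorated with MFAP2 and latent TGF-beta binding proteins, and elastin is laid down on this scaffold and cross-linked by lysyl oxidases. Short fibulins act as adaptors in this step: fibulin-5 (FBLN5) and fibulin-4 (EFEMP2) bring elastin together with lysyl oxidases and microfibrils, and fibulin-5 also binds integrins on the cell surface. LTBP1 holds latent TGF-beta in the matrix.

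FBLN5 was lower in the USP47 shRNA libraries, and of the 8 members that could be tested only FBLN5 passed the threshold. Of all genes tested 16.1% passed it in either direction and 9.56% as lower, so the members' share is close to that background. The level of FBLN5 fell to 0.321 of the control level (95% interval 0.235 to 0.438). LTBP1, FBLN1 and FBN2, which made up most of the elastic fibre transcripts in these cells, did not pass, and neither did FBN1, EFEMP2, ELN and MFAP2. EFEMP1 and FBLN2 had at most 3 counts in any library and were not tested. The question addressed by the comparison is which pathways respond to the loss of USP47.

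Total counts per library ranged from 15649899 to 20140273. The targeted gene, USP47, had 1357 and 1297 counts with control shRNA and 749 and 309 with USP47 shRNA. After TMM normalization (a scaling of library size that is robust to a few abundant genes) the knockdown libraries held 49.3% and 29.5% of the mean control CPM (counts scaled to library size), so knockdown replicate 2 retained less USP47 than replicate 1. Of the exonic bases of USP47, 41.4% are shared with DKK3 on the opposite strand, which had 28 and 36 counts with control shRNA and 56 and 42 with USP47 shRNA, and whether the counting used strand is not given. For each of the 21932 genes tested the groups were set against each other with the quasi-likelihood test of edgeR, p-values were adjusted over all of them (Benjamini-Hochberg), and a gene was called at an adjusted p under 0.05. Across all genes 16.1% were called, 9.56% lower and 6.52% higher in the knockdown. Of the 8 tested members 1 was called, lower, and 0 were called higher. At 1 of 8 the members' share is close to that background. The median log2 fold change of the 8 was -0.0062, beside -0.0083 over all genes tested. The spread of a gene was estimated partly from genes of similar abundance, since each group has 2 libraries.

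The labels call HGC-27 a gastric carcinoma cell line, but several epithelial markers were near 0 and several fibroblast markers were abundant. KRT18, a keratin of simple epithelia, had at most 1 count in each library. KRT8, its partner, had between 10 and 19 counts and CDH1, which encodes E-cadherin, between 8 and 28. Other epithelial markers were counted more often, TJP3 between 81 and 94 times and CLDN4 between 41 and 77 times. The 10 epithelial markers summed to between 9.67 and 14.9 CPM. The 10 fibroblast markers summed to between 2458 and 3407 CPM, mainly from the collagens COL3A1 and COL1A1. Other fibroblast markers were low, with TCF21 at 0 counts in every library, PDPN at 0 to 7 and DPT at 4 to 13. PTPRC, which marks leukocytes, had between 8 and 12 counts. Of the 8 fibroblast markers tested, 4 were called lower with USP47 shRNA and 0 higher, beside 9.56% of all genes called lower, and their median log2 fold change was -0.49. Of 7 epithelial markers tested 2 were called lower and 0 higher (median -0.34), EPCAM at 12 and 11 against 3 and 3 counts and CLDN7 at 49 and 68 against 21 and 13 counts. Of 3 endothelial markers tested 2 were called lower and 0 higher (median -0.74), CLDN5 and ESAM. Of 6 smooth muscle markers tested ACTA2 was called lower (-0.96) and TAGLN higher (0.83), with a median of -0.29. The 4 leukocyte markers tested were not called (median -0.26). COL1A1 was at 930.4 ± 45.4 CPM with control shRNA and 555.2 ± 172 CPM with USP47 shRNA (SD, n = 2 per group). COL1A2 was at 41.0 ± 0.0737 and 17.7 ± 10.5 CPM and was called lower as well, whereas COL3A1 was 1702 ± 11.8 and 2098 ± 449.5 CPM and was not called. The part of these markers in the fall of FBLN5 was not tested, and in bulk RNA fewer cells of a type and less RNA per cell cannot be told apart. The summed levels of the 8 smooth muscle, 7 endothelial and 8 leukocyte markers found in the files lay at 59.0 to 73.1, 7.04 to 12.2 and 6.27 to 9.26 CPM.

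Levels of different genes are compared on the deposited TPM scale (transcript abundance as a share of the library), which the authors scaled for gene length. In control cells LTBP1 was the most abundant member at 84.6 ± 10.6 TPM (SD, n = 2). FBLN1, a fibulin of basement membranes and elastic fibres, followed at 40.2 ± 1.54 TPM and FBN2, the fibrillin best known from development, at 11.7 ± 0.976 TPM. These 3 genes held 96.4% of the members' summed TPM in control cells. FBLN5 stood in position 4 at 2.07 ± 0.418 TPM. EFEMP2 (1.20 ± 0.268 TPM) and FBN1 (0.869 ± 0.239 TPM) came next and overlapped in their libraries. ELN was at 0.602 ± 0.0531 TPM and MFAP2 at 0.308 ± 0.0230 TPM. The core protein of the fibre was thus represented by far fewer transcripts than LTBP1 or FBLN1. All neighbours in the control order other than EFEMP2 and FBN1 had libraries that did not overlap.

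With USP47 shRNA the order of the first 3 genes was the same, at 70.9 ± 0.328 TPM for LTBP1, 35.7 ± 2.00 TPM for FBLN1 and 10.8 ± 0.528 TPM for FBN2 (SD, n = 2 each). FBLN5 moved from position 4 to position 6, at 0.610 ± 0.110 TPM, behind EFEMP2 at 1.27 ± 0.127 TPM and FBN1 at 0.875 ± 0.218 TPM. In the knockdown its libraries overlapped those of ELN at 0.497 ± 0.0814 TPM. FBN2 made up 91.5% to 94.0% of the fibrillin TPM in the 4 libraries.

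FBLN5 (ENSG00000140092, chromosome 14 of GRCh37, 92335755 to 92414331, minus strand) was counted 137 and 135 times with control shRNA but 49 and 35 times with USP47 shRNA. As CPM these were 8.08 and 6.88 with control shRNA and 2.36 and 2.44 with USP47 shRNA. Both knockdown libraries lay far below both controls and close to each other. Whether the level of FBLN5 follows the USP47 that remained was not tested, with 1 library at each USP47 level. By edgeR's quasi-likelihood test FBLN5 changed by -1.64 on the log2 scale, with a standard error of 0.20, a 95% interval from -2.09 to -1.19 and an adjusted p = 0.00114. Of the 2097 genes called lower, 252 had a larger fall, and the median log2 fold change of the called ones was -0.90. FBLN5 was among the genes that the study also measured by RT-qPCR, which is not analysed here. A test against a minimum absolute log2 fold change of 1 gave an adjusted p = 0.156, so the fall was called against no change but not against that minimum. No exon of another annotated gene overlaps an exon of FBLN5.

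**Figure D1:**
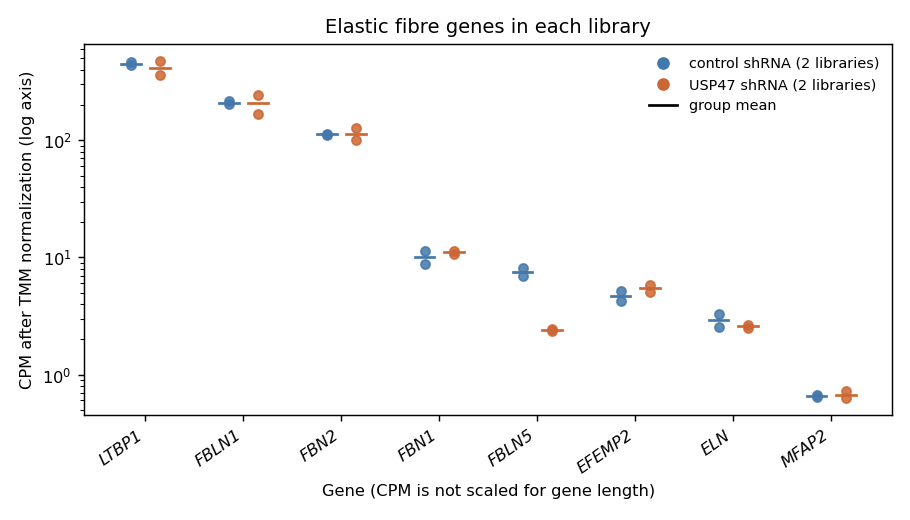
CPM after TMM normalization on a log axis for the 8 elastic fibre genes tested, with 1 point per library and a line at each group mean, control shRNA beside USP47 shRNA. FBLN5 is the only gene here whose groups stand well apart (8.08 and 6.88 against 2.36 and 2.44 CPM), while the other 7 overlap. With 2 libraries per group, groups can stand apart without a difference, and the share of all genes that do was not counted.

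The promoter of FBLN5 is shown beside those of EFEMP2, the other short fibulin tested among the members, and of MFAP2, the only member with a match to the E-box CAGGTG. This E-box is bound by Snai1, a repressor that the study also examined. RefSeq promoter windows were matched by symbol for 8 of the 10 members, 13 start sites in all, and none were matched for EFEMP1 and ELN. The 250 bases before each start site (GRCh38.p14, a newer build than the count files use) were searched on both strands for CAGGTG, for the AP-1 site TGANTCA, for TATAAA and for the GC box GGGCGG, and capitals mark every match. The windows lie at chr14:91947695-91947944 (FBLN5, minus strand), chr11:65872801-65873050 (EFEMP2, minus strand) and chr1:16981584-16981833 (MFAP2, minus strand, the farther upstream of its 2 start sites).
FBLN5: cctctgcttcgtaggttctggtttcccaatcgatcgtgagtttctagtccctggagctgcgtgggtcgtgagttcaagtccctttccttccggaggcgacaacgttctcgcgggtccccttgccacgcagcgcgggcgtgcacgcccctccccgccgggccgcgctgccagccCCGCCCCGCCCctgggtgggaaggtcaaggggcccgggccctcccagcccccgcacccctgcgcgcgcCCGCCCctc
EFEMP2: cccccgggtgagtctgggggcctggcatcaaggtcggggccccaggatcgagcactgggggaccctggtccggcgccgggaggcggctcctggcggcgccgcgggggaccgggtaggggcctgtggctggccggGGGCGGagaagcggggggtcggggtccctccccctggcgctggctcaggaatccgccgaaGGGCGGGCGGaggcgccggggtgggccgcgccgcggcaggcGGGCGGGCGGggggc
MFAP2: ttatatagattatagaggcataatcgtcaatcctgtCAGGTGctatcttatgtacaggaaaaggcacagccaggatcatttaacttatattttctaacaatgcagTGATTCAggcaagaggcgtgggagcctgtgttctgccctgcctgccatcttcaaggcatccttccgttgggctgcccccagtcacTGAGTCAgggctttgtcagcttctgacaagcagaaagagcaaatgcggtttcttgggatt

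The FBLN5 window held 0 matches to the E-box, the AP-1 site or the TATA box and 3 to GGGCGG, starting 77, 72 and 9 bases before the start site, of which the first 2 share a base. The EFEMP2 window held 5 GC boxes, 4 of them in overlapping pairs. Over all 35116 RefSeq windows of this length, 42.6% held GGGCGG and 17.5% held CAGGTG. Among the 13 windows of the members CAGGTG was found in 1, the farther upstream window of MFAP2. This window also held 2 matches to TGANTCA, found in 6.57% of all windows. The second MFAP2 start site had 0 matches to CAGGTG or TGANTCA and 2 to GGGCGG, and its window was 76.4% G or C. Which MFAP2 start site these cells use was not measured. The FBLN5 window was 71.6% G or C with 27 CpG dinucleotides, against medians of 58.0% and 11 over all windows. A second start site of FBLN5 had 1 match to TATAAA, which 10.7% of all windows held, and 1 to GGGCGG. Its window was 48.8% G or C with 14 CpG dinucleotides, and which start site these cells use was not measured. These letters are a description of the windows and no binding was measured.

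The other tested fibulins among the members were not called. FBLN1 (ENSG00000077942, chromosome 22, 45898118 to 45997015) had 3433 and 4272 counts with control shRNA and 3509 and 3504 with USP47 shRNA. In CPM the controls were 202 and 218 and the knockdown libraries 169 and 244, one below and one above both controls. On the TPM scale both knockdown libraries (34.3 and 37.1 TPM) lay below both controls (41.3 and 39.1 TPM). As deposited FPKM the groups overlapped, with the knockdown libraries at 24.4 and 31.4 and the controls at 29.5 and 30.7. The log2 fold change of -0.026 had a 95% interval from -0.41 to 0.36 (adjusted p = 0.937, edgeR's quasi-likelihood test). Without USP47 shRNA replicate 2 it was -0.31 and was called (adjusted p = 0.0304), and without USP47 shRNA replicate 1 it was 0.23 (adjusted p = 0.112). Its direction thus turned with the knockdown library that was kept. EFEMP2 (ENSG00000172638, chromosome 11, 65633912 to 65641063) had 87 and 83 counts in control cells and 105 and 84 in knockdown cells, or 5.13, 4.23, 5.05 and 5.85 CPM. Its groups overlapped, at a log2 fold change of 0.22 (95% interval -0.22 to 0.65, adjusted p = 0.483). EFEMP2 shares 11 exonic bases with MUS81 on the other strand.

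EFEMP1 (chromosome 2, 56093102 to 56151274), also called fibulin-3, was counted 3 and 2 times in control cells, once in knockdown replicate 1 and 0 times in knockdown replicate 2. FBLN2 (chromosome 3, 13590625 to 13679922), a large fibulin that binds many matrix proteins, had 1 count in control replicate 1 and 0 in every other library. A count of 3 or fewer does not allow a fold, and a difference in either gene was not detectable at this depth.

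The fibrillins, which form the microfibril itself, were not called. FBN2 (ENSG00000138829, chromosome 5, 127593601 to 127994878) was counted 1902 and 2220 times with control shRNA and 2107 and 1813 times with USP47 shRNA. The 2 controls lay at 112 and 113 CPM and the knockdown libraries on either side of them at 101 and 126. The log2 fold change was 0.014 (95% interval -0.30 to 0.33, adjusted p = 0.960, edgeR's quasi-likelihood test). An end of FBN2 shares 56 exonic bases with SLC27A6 on the opposite strand, which is 0.314% of the exonic length of FBN2. FBN1 (ENSG00000166147, chromosome 15, 48700510 to 48937918), the fibrillin mutated in Marfan syndrome, had 194 and 172 counts against 237 and 153. Its CPM of 11.4 and 8.77 in control cells enclosed those of 11.4 and 10.7 in the knockdown, at a log2 fold change of 0.13 (95% interval -0.25 to 0.52).

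LTBP1 (ENSG00000049323, chromosome 2, 33172020 to 33624576) was counted 7861 and 8647 times in control cells and 7472 and 6847 times in knockdown cells. After TMM normalization this came to 464 and 441 CPM against 359 and 477, with knockdown replicate 1 below and replicate 2 above both controls. The log2 fold change was -0.11 (95% interval -0.47 to 0.24, adjusted p = 0.668, edgeR's quasi-likelihood test). On the TPM scale both knockdown libraries (71.1 and 70.6 TPM) lay below both controls (92.1 and 77.1 TPM). As deposited FPKM the knockdown libraries were at 50.6 and 59.7 and the controls at 65.8 and 60.4, so replicate 2 of each group lay close together. Scaled by library size alone, LTBP1 changed by -0.19 on the log2 scale (adjusted p = 0.300). Without USP47 shRNA replicate 2 it was -0.33 and was called (adjusted p = 0.0215), and without USP47 shRNA replicate 1 it was 0.086.

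ELN (ENSG00000049540, chromosome 7, 73442119 to 73484237), the elastin gene, had 43 and 64 counts with control shRNA and 52 and 38 with USP47 shRNA. Its 4 libraries lay between 2.50 and 3.26 CPM and the groups overlapped, at a log2 fold change of -0.18 (95% interval -0.71 to 0.34). ELN shares 165 exonic bases with ELN-AS1 on the opposite strand, which had at most 1 count in each library. MFAP2 (ENSG00000117122, chromosome 1, 17300997 to 17307127) had 11 and 13 counts against 15 and 9, and its 95% interval was the widest of the 8, from -0.79 to 0.90. MFAP2 and LTBP1 share 368 and 249 exonic bases with unnamed long non-coding RNAs on the opposite strand, for which no counts were used here. For ELN and MFAP2 a change of the size seen in FBLN5 lies outside these intervals. Changes that lie within the intervals could not be resolved at this depth. The lowest lower bound among the 7 members that were not called was that of MFAP2 at -0.79, above the upper bound of -1.19 for FBLN5.

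**Figure D2:**
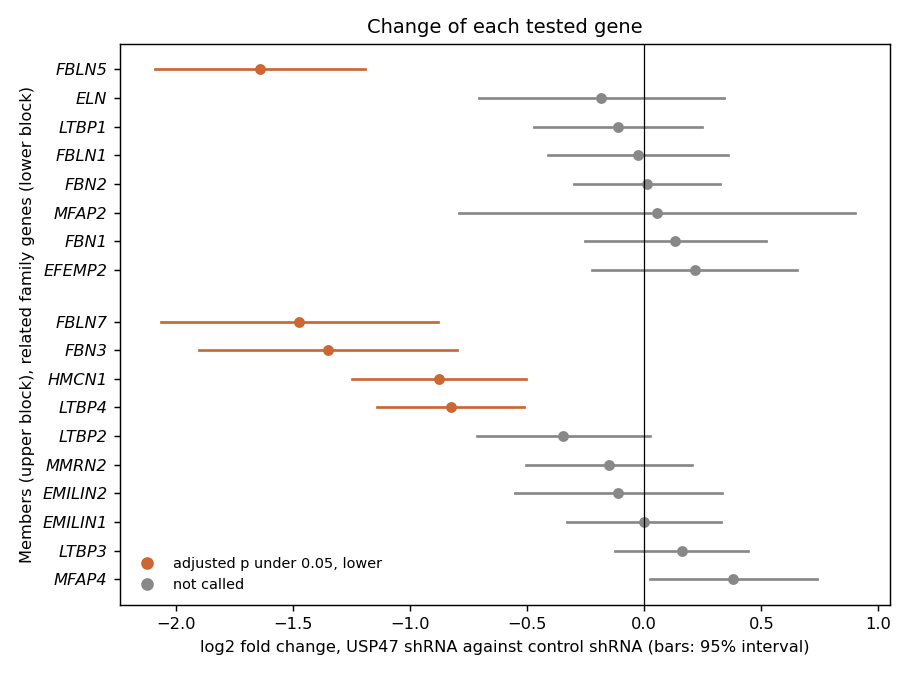
Log2 fold change of USP47 shRNA against control shRNA with its 95% interval for each tested member (upper block) and each tested gene of the related families (lower block), coloured where the adjusted p was under 0.05. FBLN5 at -1.64 stands apart from the other 7 members, and FBLN7, FBN3, HMCN1 and LTBP4 are the called genes in the lower block.

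The related families held further genes that fell. Of 14 other fibulins, fibrillins, latent TGF-beta binding proteins, microfibril-associated proteins and EMILINs, 10 were tested, 4 were called lower and 0 higher, beside 9.56% lower and 6.52% higher over all genes, and the median log2 fold change was -0.25. FBLN7, a short fibulin, had 59 and 57 counts with control shRNA and 22 and 18 with USP47 shRNA, or 3.19 ± 0.405 and 1.16 ± 0.139 CPM (SD, n = 2 per group). This was a change of -1.47 on the log2 scale, with a standard error of 0.27 (edgeR's quasi-likelihood test, adjusted p = 0.00639). FBN3, the third human fibrillin, went from 105 and 96 counts to 37 and 38, a change of -1.35 on the log2 scale with a standard error of 0.25 (adjusted p = 0.00688). Both genes had knockdown libraries below both controls, as FBLN5 did, and FBN1, FBN2 and EFEMP2 overlapped between the groups. LTBP2 and MMRN2 also lay below both controls, and LTBP3 and MFAP4 above them, and none of these was called. The share of all genes whose groups do not overlap was not counted.

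HMCN1 encodes hemicentin, a giant matrix protein of the fibulin family, and LTBP4 a latent TGF-beta binding protein that also assists elastin assembly. HMCN1 was at 71.5 ± 9.74 and 38.8 ± 8.33 CPM (SD, n = 2 per group), a log2 fold change of -0.88 (adjusted p = 0.00807, edgeR's quasi-likelihood test), and missed the threshold without control shRNA replicate 1 (adjusted p = 0.0584). LTBP4 was at 184 ± 0.918 CPM and 104 ± 15.7 CPM, with -0.83 as its log2 fold change (adjusted p = 0.00507). The 4 libraries of LTBP4 were 185, 184, 93.0 and 115 CPM. LTBP4 was called lower and LTBP1 was not, and whether the changes of these 2 genes differ was not tested. LTBP2 (log2 fold change -0.34, adjusted p = 0.181) and LTBP3 (0.16, adjusted p = 0.418) were not called. MFAP4, a microfibril-associated protein that binds elastin, was at 97.8 ± 8.20 and 127 ± 27.4 CPM and was not called.

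Of 21 genes that cross-link, process or scaffold elastic fibres, all tested, 3 were called lower and 2 higher, beside 9.56% lower and 6.52% higher over all genes, and the median log2 fold change was -0.17. These shares are near those of all genes. FN1, the fibronectin on which microfibrils assemble, fell by 1.34 on the log2 scale, with a standard error of 0.14 (edgeR's quasi-likelihood test, adjusted p = 0.000602). The study also measured FN1 by RT-qPCR, as it did FBLN5. LOXL3, a lysyl oxidase, was at 11.1 ± 0.441 and 4.67 ± 0.00283 CPM (SD, n = 2 per group) and fell by 1.24. THSD4, which promotes fibrillin microfibril assembly, was at 40.5 ± 1.30 and 22.6 ± 2.54 CPM and fell by 0.84. LOX and LOXL1, the lysyl oxidases most tied to elastin, were not called, at log2 fold changes of -0.14 and -0.50. In LOXL1 knockdown replicate 1 lay at 39.2 CPM and replicate 2 at 72.3, against 75.1 and 81.9 in control cells. ADAMTSL3 (0.53, adjusted p = 0.0299) and GLB1, whose splice form is the elastin-binding protein (0.59, adjusted p = 0.0225), were called higher. The ADAMTSL3 call was lost with library size alone (adjusted p = 0.0789), the DESeq2 Wald test (0.0611), no filter on low counts (0.0531) and without control shRNA replicate 1 (0.327) or replicate 2 (0.235). The GLB1 call was lost without control shRNA replicate 1 (adjusted p = 0.343) or replicate 2 (0.0756). Without control shRNA replicate 1 or replicate 2 the list held 3 called genes, and without USP47 shRNA replicate 1 and replicate 2 it held 9 and 13.

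Among 14 integrins, syndecans and TGF-beta ligands that meet fibulins, fibrillins or LTBPs, 13 were tested, 3 were called higher and 1 lower, beside 6.52% higher and 9.56% lower over all genes, and their log2 fold changes had a median of 0.28. SDC4, a syndecan, was at 13.0 ± 0.133 CPM with control shRNA and 21.8 ± 3.68 CPM with USP47 shRNA (SD, n = 2 per group), a log2 fold change of 0.74 (adjusted p = 0.0134, edgeR's quasi-likelihood test). TGFB3, a ligand held by LTBPs, went from 45.7 ± 0.362 to 72.6 ± 5.96 CPM (log2 fold change 0.67), and ITGA4, an integrin subunit, from 84.5 ± 4.66 to 132 ± 3.91 CPM (0.65). ITGB8, a subunit of an integrin that activates latent TGF-beta, was called lower at -0.77 (adjusted p = 0.0299), a call lost with library size alone (adjusted p = 0.0627), the DESeq2 Wald test (0.0821) and without control shRNA replicate 1 (0.258). Leaving out either control library also ended the calls of SDC4, TGFB3 and ITGA4 (adjusted p from 0.0767 to 0.171). ITGB3, a subunit of an integrin that binds fibrillin, had 15 and 9 counts in control cells and 1 and 2 in knockdown cells and was not tested. With no filter on low counts all 14 genes of this list were tested, and 3 were called higher and 2 lower. Of the ligands, TGFB1 (-0.082) and TGFB2 (-0.38) were not called. Without control shRNA replicate 1 this list held 0 called genes, without control shRNA replicate 2 it held 2, and without USP47 shRNA replicate 1 and replicate 2 it held 9 and 6.

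Of 16 enzymes that cut elastin or fibrillin and their inhibitors, 11 were tested, 2 were called lower and 1 higher, beside 9.56% lower and 6.52% higher over all genes, and the median log2 fold change was -0.16. MMP2, a gelatinase that also cuts elastin and fibrillin, had the largest change of the 3, a change of -1.16 on the log2 scale with a standard error of 0.18 (edgeR's quasi-likelihood test, adjusted p = 0.00326). MMP2 was also among the genes that the study measured by RT-qPCR. TIMP3, an inhibitor of matrix metalloproteinases that stays bound to the matrix, was also lower, at 19.5 ± 2.52 and 11.9 ± 1.96 CPM (SD, n = 2 per group). CTSS, the elastin-cutting cathepsin S, was higher at 7.84 ± 0.497 and 12.4 ± 0.398 CPM, a log2 fold change of 0.66 (adjusted p = 0.0197) that missed the threshold with library size alone (adjusted p = 0.0512) and without control shRNA replicate 1 (0.139) or replicate 2 (0.226). The TIMP3 call was lost without control shRNA replicate 2 (adjusted p = 0.191). Without control shRNA replicate 2 the list held 1 called gene, and without USP47 shRNA replicate 1 or replicate 2 it held 5. MMP12, the macrophage elastase, had 0 counts in every library.

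Other processing left the fall of FBLN5 in place in size. Its log2 fold change lay between -1.70 and -1.62 over the 9 alternatives that used all libraries and between -1.75 and -1.52 when 1 library was left out, and the DESeq2 Wald test gave an adjusted p = 0.000111. For the other 7 tested members the log2 fold changes without 1 library lay between -0.35 and 0.36.

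**Figure D3:**
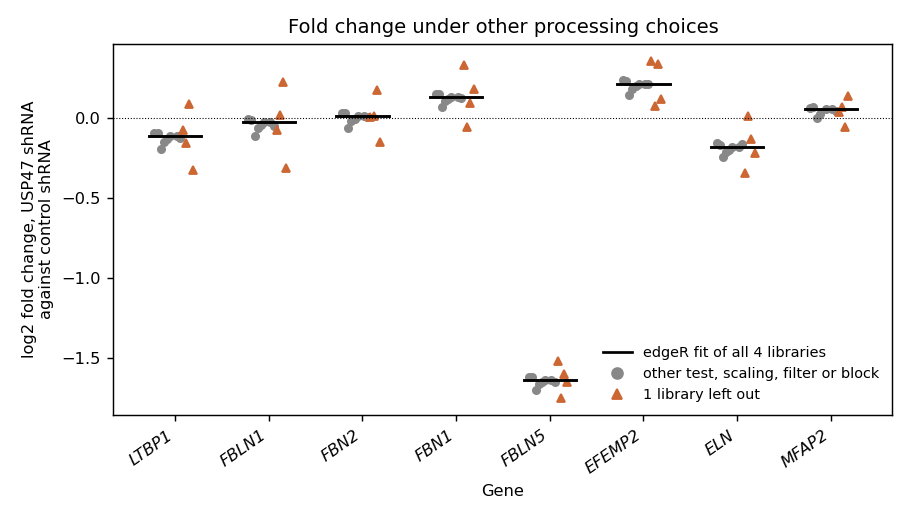
Log2 fold change of each tested member in the edgeR fit of all 4 libraries (line), under another test, scaling, filter or the replicate block (circles) and with 1 library left out (triangles). FBLN5 lies between -1.75 and -1.52 throughout, while the other 7 lie within -0.35 and 0.36.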

How the data were processed

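HGC-27 cells with control shRNA (2 libraries) and USP47 shRNA (2 libraries) were analysed, with groups taken from the sample labels. Per library the authors deposited raw counts of reads per gene with FPKM and TPM values derived from them. Per the methods, bases below a quality score of 20 were trimmed, reads were mapped to hg19 with STAR 2.7.5c, and duplicates were removed with SAMtools 1.9, which can compress fold changes of abundant genes. The submitters' processing notes also name featureCounts. The annotation and any use of strand are not given in the sources used here. The labels name a stranded library kit and the methods a different one, and the methods speak of triplicates.

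Symbols matched 55665 of 63568 identifiers, and positions came from GRCh37 with GENCODE release 44 lifted to it. Counts were tested with edgeR 4.0.16 in R 4.3.3 (TMM, filterByExpr, robust quasi-likelihood fit, both directions, Benjamini-Hochberg over all genes tested). The standard error is the absolute log2 fold change over the square root of F, and intervals are at 95% with the fit's degrees of freedom. TPM served to compare levels between genes, with FPKM as the alternative. For FBLN1 and LTBP1 both scales are also given beside CPM, without a test. DESeq2 1.42.0, other scalings and filters, a minimum fold, a replicate block and leaving out libraries were alternatives. The members and lists were chosen with earlier results of these data known. Named are all members, USP47, from each of the 4 lists of partners up to 3 called genes per direction with the largest change (average log2 CPM 0 or above), and the defining markers of the cell type lists. Other genes named for comparison were picked after their values were seen. PECAM1 from the endothelial list was not matched and is not analysed here.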

Additional observations from a re-analysis of the deposited data

How the results depend on the processing

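The number of members called stayed at 1 under 11 of the 13 alternatives. It was 0 when a log2 change beyond 1 was required (the same setting under which FBLN5, at -1.64, lost its call) and between 1 and 3 across the fits without 1 library, with 3 (FBLN5, FBLN1 and LTBP1, all lower) without USP47 shRNA replicate 2. In fits without 1 library a group holds a single library, assumed to vary like the other group.

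The number of genes called, 3527, was 2288 with the DESeq2 Wald test, 71 with the minimum fold, 7422 with the replicate block and 1230 to 7270 without 1 library. With library size alone 31.5% of the 2800 calls were higher, against 40.5% of 3527, and this share ran from 26.3% without control shRNA replicate 1 to 51.9% without USP47 shRNA replicate 1. With the minimum fold 0 genes were called in each of the other 4 lists. With the replicate block 9 assembly genes, 8 receptors and 5 proteases were called. Without 1 library the counts lay between 3 and 13 for assembly genes, 0 and 9 for receptors, 1 and 5 for proteases, and 3 and 5 for the related families. No source says that a replicate number marks a shared batch, and there are only 2 pairs. Across 15792 genes, how far replicate 1 lay from its group's mean correlated at 0.423 between control shRNA and USP47 shRNA. The block changed the call of none of the members.

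Of the 7 members that were not called, EFEMP2 kept its sign under every alternative run and the other 6 changed sign under at least 1. FBN2 was at -0.064 with library size alone, -0.019 with no filter, -0.0035 when every library needed at least 10 counts and -0.15 without USP47 shRNA replicate 2. MFAP2 was at -0.0020 with library size alone and -0.056 without USP47 shRNA replicate 1. Without 1 library FBLN1 lay between -0.31 and 0.23, FBN1 between -0.054 and 0.33, FBN2 between -0.15 and 0.17, ELN between -0.35 and 0.015, LTBP1 between -0.33 and 0.086 and MFAP2 between -0.056 and 0.14. FBLN1 was at 0.021 without control shRNA replicate 2 and 0.23 without USP47 shRNA replicate 1. FBN1 was at -0.054 and ELN at 0.015 without control shRNA replicate 2, and LTBP1 at 0.086 without USP47 shRNA replicate 1. The cause was not tested.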
